A study of Homo sapiens with 5 samples.

Results

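The genes described here are 10 members of erythropoietin, KIT and JAK2-STAT5 signalling: the receptors EPOR and KIT, the kinase JAK2, the transcription factors STAT5A and STAT5B, the inhibitors SH2B3, CISH, SOCS2 and SOCS3, and the kinase PIM1. They were chosen by name, and 9 of the 10 matched a row among the 11976 genes of the authors' deposited table; the expression of SOCS3 was not analysed here. Bulk RNA-seq compared 3 libraries labelled ERF knockout with 2 labelled wild type, all from HUDEP-2, an immortalised human erythroid progenitor line obtained from umbilical cord blood. ERF is a transcriptional repressor of the ETS family. The titles of the wild-type libraries carry the letters SCR, which the labels do not explain. The labels also do not say whether the knockout libraries came from 1 clone or several, or from independent cultures. The p-values therefore reach no further than the spread among these libraries, some of which can be technical. The degrees of freedom that the deposited test implies, 10.3, exceed the 5 libraries, so each gene's spread was estimated partly from other genes. What medium and cytokines the cells received was not given in the sources used here.

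Erythropoietin is the hormone that keeps erythroid progenitors alive and drives their expansion. It binds EPOR, a receptor with no kinase of its own, and JAK2 attached to the receptor then phosphorylates it and the STAT5 proteins, which move to the nucleus and switch on genes such as CISH, SOCS2 and PIM1. CISH, SOCS2 and SOCS3 in turn dampen the receptor, and SH2B3 (also called LNK) is an adaptor that restrains JAK2 and KIT. KIT, the receptor for stem cell factor, is itself a tyrosine kinase, and it acts together with EPOR in early progenitors and is normally lost as erythroid cells mature.

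For each gene the authors' deposited table holds the log2 fold change between the groups, the mean log2 CPM (counts scaled to library size) over all libraries and the outcome of a quasi-likelihood F test. It has no value per library, so levels in each sample and overlap of the groups cannot be shown, and library depth is unknown. Its header names no reference group, and the meaning of Pre in its name is not explained, which leaves the stage of culture unknown. The sign was set so that the γ-globin gene HBG2 is higher in the libraries labelled knockout, since the series title speaks of γ-globin reactivation. The authors' deposited table lists HBG2 at -1.88 and ERF, the targeted gene, at -0.89, so every log2 fold change below is the deposited value multiplied by -1. HBG2 then stands at 1.88, with a derived standard error (SE) of 0.22, and is not a finding. ERF then stands at 0.89, with a derived SE of 0.07 (adjusted p = 6.44e-06 by the authors' deposited table), so its RNA went against the knockout label under this sign. With the opposite sign every "higher" and "lower" below changes places, whereas statements that genes moved together, or opposite to HBG2 and ERF, hold under either sign. The table holds no SE; fold change and F together gave each SE and 95% interval. The cells carried erythroid RNA: all 14 erythroid markers examined were in the authors' deposited table. Of these, 8 were higher and 0 lower, beside 24.9% and 25.9% of all genes. Of 23 markers of other blood lineages, 3 were in that table (ITGA2B, TPSAB1 and LYZ). The other 20 matched no row and were not analysed here. In bulk RNA, fewer cells of a type and less RNA per cell cannot be told apart.

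Of the 9 genes measured, 6 were lower in the libraries labelled knockout and 0 were higher at an adjusted p below 0.05. Over all 11976 genes, 50.9% passed in either direction, 25.9% as lower and 24.9% as higher. SH2B3 was lowest, followed by JAK2, KIT, SOCS2, STAT5B and STAT5A. EPOR, CISH and PIM1 did not pass the threshold, and their derived intervals stayed within 0.15 of zero on the log2 scale. Among the 2946 genes between 6 and 10 log2 CPM, the range that holds all 9 members, 54.9% passed, 23.2% as lower and 31.7% as higher, a background chosen after the data had been seen. The median log2 fold change of the 9 genes was -0.22, and that of all genes was -0.00186. The 6 lower genes all moved opposite to HBG2 and ERF.

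**Figure D1:**
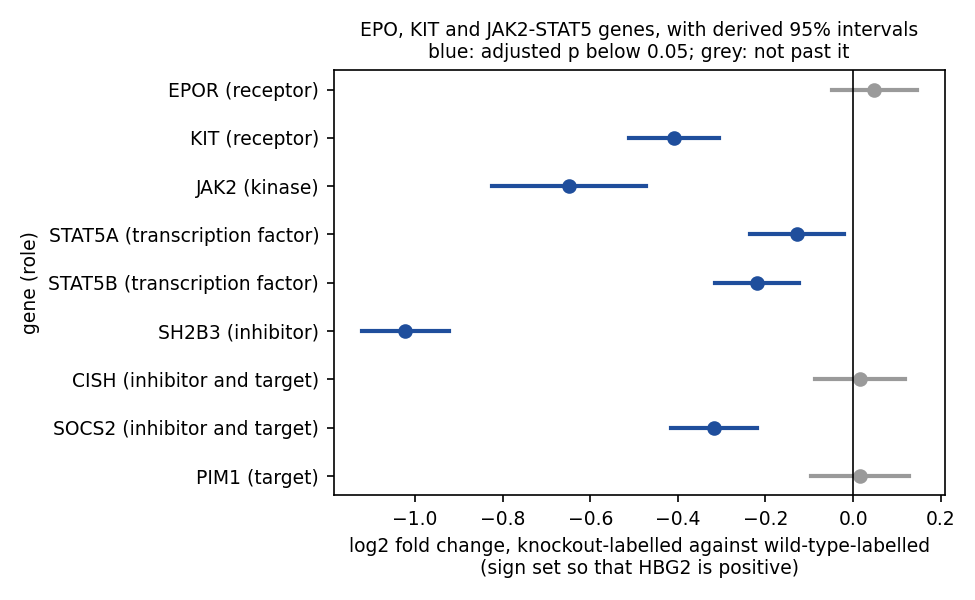
Log2 fold change of each of the 9 genes (points) with its derived 95% interval (bars), ordered by role, with genes past an adjusted p of 0.05 in blue and the others in grey. SH2B3 lies at -1.02, apart from the other genes, while the intervals of EPOR, CISH and PIM1 cross zero.

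The promoter of CISH is shown first because it alone of these genes held the letters that STAT5 prefers, although its RNA was one of the 3 that did not pass. RefSeq promoter windows on GRCh38.p14, which run from 250 bases before to 50 after a transcript start, were at hand for 9 of the 10 members in 16 windows; SOCS2 had none. They were searched on both strands for TTCNNNGAA, the core of the STAT5 site, and for CCGGAAG, an ETS core; the former reads the same on both strands. The CISH window held 4 matches to TTCNNNGAA in 2 pairs, on the minus strand of chromosome 3 at chr3:50611992-50612019 and chr3:50611876-50611905. Each pair is printed 5′ to 3′ along the gene with the matches in capitals:
CISH distal pair: cgttTTCCTGGAAagTTCTTGGAAatct
CISH proximal pair: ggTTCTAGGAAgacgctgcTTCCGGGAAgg
Counted from the transcript start, the distal stretch runs from -245 to -218 and the proximal stretch from -131 to -102. Both also lie inside MAPKAPK3, which runs the other way: in GENCODE release 29 on GRCh38, the distal stretch overlaps an exon of that gene and the proximal stretch lies in an intron. The last match of the proximal pair shares 6 bases with the only match to CCGGAAG in the windows of these genes, which lies on the opposite strand from -113 to -107.

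No other member's window held either motif, which says only that these letters are not in those 300 bases. Of all 35116 windows, 7.66% held TTCNNNGAA at least once and 10.3% held CCGGAAG. Of the 12337 windows of genes in the authors' deposited table, 6.32% and 18.1% did. At least 4 matches to TTCNNNGAA were found in 7 windows of 6 gene symbols, among them CISH and BCL6, the latter a gene that STAT5 represses. In the window of BCL6 1 match ended before the start, 1 spanned it and 2 lay after it. The test called 1 of these RNAs and not the other: BCL6 was lower (log2 fold change -1.24 in the authors' deposited table with the sign reversed), with a derived SE of 0.21 (adjusted p = 0.000704), at a mean of only 0.14 log2 CPM, and CISH stood at 0.02. The windows are descriptions of letters; binding was not measured.

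The receptors parted. KIT (ENSG00000157404) had -0.41 as its log2 fold change in the authors' deposited table with the sign reversed, a derived SE of 0.05 and a 95% interval from -0.51 to -0.31 (adjusted p = 6.11e-05), so it was 1.33-fold lower. EPOR (ENSG00000187266) stood at 0.05 in the authors' deposited table with the sign reversed, a derived SE of 0.04 and a 95% interval from -0.05 to 0.15 (adjusted p = 0.381). The interval of EPOR ends at 0.15, and it does not overlap that of KIT. KIT also marks mast cells, and TPSAB1, the mast cell tryptase gene that was in the table, was higher at 0.61 in the authors' deposited table with the sign reversed (adjusted p = 0.000241), opposite to KIT; it shares reads with a near-identical copy, so its value is uncertain. The part of mast-like cells in the KIT value was not tested. The mast cell and basophil markers CPA3, HDC, FCER1A, MS4A2 and CMA1 matched no row and were not analysed here.

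JAK2 (ENSG00000096968), the kinase that EPOR depends on, was 1.57-fold lower, with -0.65 as its log2 fold change in the authors' deposited table with the sign reversed, a derived SE of 0.08 and a 95% interval from -0.83 to -0.47 (adjusted p = 9.96e-05). Of all genes, 9.05% had a larger absolute log2 fold change. Its SE was the largest of the 9 genes, at a mean of 6.07 log2 CPM in the authors' deposited table.

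The STAT5 genes lie next to each other on chromosome 17 and encode closely related proteins with shared and separate duties. STAT5B (ENSG00000173757) was 1.16-fold lower, with -0.22 as its log2 fold change in the authors' deposited table with the sign reversed, a derived SE of 0.04 and a 95% interval from -0.32 to -0.12 (adjusted p = 0.00196). STAT5A (ENSG00000126561) was 1.09-fold lower, at -0.13 in the authors' deposited table with the sign reversed, a derived SE of 0.05 and a 95% interval from -0.23 to -0.02 (adjusted p = 0.0474). The intervals of the pair overlap, and both changes were small: the median absolute log2 fold change was 0.36 among all genes that passed. STAT5A passed by a narrow margin and was lost at an adjusted p below 0.01 or with a minimum log2 fold change of 0.2. Of the 50-base stretches of the longest coding transcript in GENCODE release 29, 11.9% in STAT5A and 10.03% in STAT5B were identical in the other gene. Reads that lie wholly within those stretches may not be assignable to either gene. The values of this pair are therefore uncertain to an extent that was not tested.

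SH2B3 (ENSG00000111252), the restraining adaptor, showed the largest difference of the set. It was 2.03-fold lower, with -1.02 as its log2 fold change in the authors' deposited table with the sign reversed, a derived SE of 0.05 and a 95% interval from -1.12 to -0.92 (adjusted p = 1.16e-07). Its p-value was the 38th smallest of 11976 genes, and 3.07% of genes had a larger absolute fold change. The interval of SH2B3 does not overlap that of JAK2, the next lowest gene. The exons of SH2B3 share 69 bases with ATXN2 on the opposite strand, 1.21% of its exon length, and ATXN2 stood at -0.30 in the authors' deposited table with the sign reversed.

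The inhibitors that STAT5 induces did not move as a block. SOCS2 (ENSG00000120833) was 1.25-fold lower, with -0.32 as its log2 fold change in the authors' deposited table with the sign reversed, a derived SE of 0.04 and a 95% interval from -0.42 to -0.22 (adjusted p = 0.000213). CISH (ENSG00000114737) stood at 0.02 in the authors' deposited table with the sign reversed, a derived SE of 0.05 and a 95% interval from -0.09 to 0.12 (adjusted p = 0.803). The intervals of SOCS2 and CISH do not overlap, although both genes are standard readouts of STAT5 activity. Each has a neighbour on the opposite strand, and no source used here says whether counting used strand. SOCS2-AS1, whose exons cover 4.09% of the exon length of SOCS2, stood at -0.76 with an SE of 0.14 (mean 1.47 log2 CPM) in the authors' deposited table with the sign reversed. MAPKAPK3, whose exons cover 4.26% of that of CISH, stood at 0.36 with an SE of 0.06 (mean 6.49 log2 CPM) in the authors' deposited table with the sign reversed. How far reads of these neighbours enter the values of SOCS2 and CISH was not tested.

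PIM1 (ENSG00000137193), a serine/threonine kinase that supports survival downstream of STAT5, stood at 0.02 in the authors' deposited table with the sign reversed, a derived SE of 0.05 and a 95% interval from -0.10 to 0.13 (adjusted p = 0.807). The authors' deposited table gave it a mean of 9.61 log2 CPM over all libraries.

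**Figure D2:**
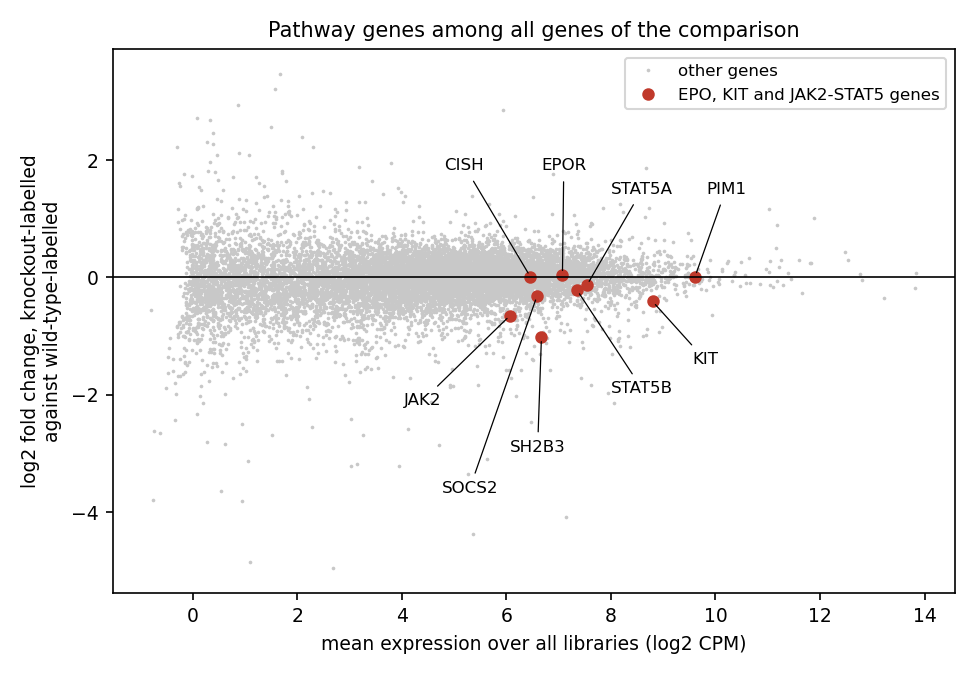
Log2 fold change (vertical axis) against mean expression in log2 CPM (horizontal axis) for all 11976 genes in grey and the 9 pathway genes in red. The pathway genes lie between 6.07 and 9.61 log2 CPM; SH2B3 is the lowest of them at -1.02, while PIM1, EPOR and CISH lie within 0.05 of zero.

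Levels of the 9 genes were compared per length, as the mean log2 CPM over all libraries per kb. PIM1 was highest, at 8.04 over the length of all exons together and 8.20 over the longest coding transcript. KIT followed at 6.32 and 6.42, EPOR at 5.45 and 5.80, and STAT5A at 5.02 and 5.44. JAK2 was lowest by either length, at 3.45 and 3.67. The order of STAT5B, SH2B3, CISH and SOCS2 depended on the length used: CISH ranked 7 of 9 over all exons and 5 of 9 over its longest transcript. Lengths are from GENCODE release 29 on GRCh38, while the submitters' processing notes name hg19/GRCh37. No spread over libraries was at hand for these levels, so neighbours in the order cannot be separated.

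**Figure D3:**
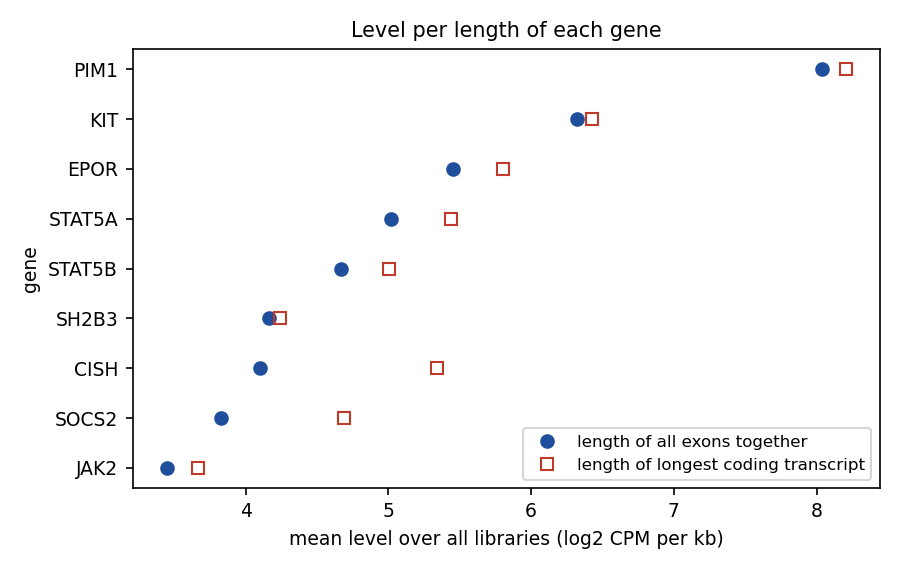
Mean level over all libraries in log2 CPM per kb for each gene, by the length of all exons together (filled circles) and of the longest coding transcript (open squares). PIM1 and KIT lead and JAK2 is last by either length, while CISH and SOCS2 shift most between the lengths.

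Beyond these members, 111 further genes of the pathway were examined in 5 lists. Of the 77 in the authors' deposited table, 22 were lower, 23 higher and 32 not past the threshold, a called share of 58.4% beside the 50.9% of all genes. Their median log2 fold change was 0.03, beside -0.22 for the 9 members, a difference that was not tested.

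Among 12 other cytokine and growth factor receptors, 2 were lower and 3 higher, with a median of 0.06, beside 25.9% and 24.9% of all genes. IL6R, the interleukin-6 receptor, was 2.70-fold lower at -1.43 in the authors' deposited table with the sign reversed, with a derived SE of 0.11 and a low mean of 1.71 log2 CPM (adjusted p = 6.34e-06). TFR2, an iron-sensing receptor that associates with EPOR, was lower (log2 fold change -0.37 in the authors' deposited table with the sign reversed), with a derived SE of 0.05 (adjusted p = 0.000129). IL4R, the interleukin-4 receptor, was higher at 0.65 in the authors' deposited table with the sign reversed, with a derived SE of 0.07 (adjusted p = 2.88e-05). IL2RG, the common γ chain, stood at 0.52 and IL6ST, the shared gp130 chain, at 0.22 in the authors' deposited table with the sign reversed, both past the threshold but neither at an adjusted p below 0.01. The mean of IL2RG was a low 0.43 log2 CPM, under the minimum of 1 log2 CPM tried as an alternative. CSF2RB, the common β chain that can pair with EPOR, was chosen after its value was seen and stood at 0.13 (adjusted p = 0.111) in the authors' deposited table with the sign reversed.

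Of 6 other JAK and STAT genes measured, 1 was lower and 2 higher, with a median of 0.00100, and 3 did not pass. The called share was 50%, beside 50.9% of all genes, 25.9% as lower and 24.9% as higher. JAK1, which serves interferon and interleukin receptors, was higher at 0.17 in the authors' deposited table with the sign reversed, with a derived SE of 0.05 (adjusted p = 0.0158). STAT2, a factor of the interferon response, was the lower gene, with -0.20 in the authors' deposited table with the sign reversed and a derived SE of 0.06. TYK2 (-0.03) and STAT3 (0.03), a kinase and a factor chosen after their values were seen, did not pass in the authors' deposited table with the sign reversed. JAK2, STAT5A and STAT5B were thus lower beside a JAK1 value that was higher, and the difference between these genes was not tested. The calls of JAK1, STAT2 and STAT5A were lost at an adjusted p below 0.01 or with a minimum absolute log2 fold change of 0.2.

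Further genes listed as inhibitors split evenly: of 23 measured, 6 were lower and 6 higher, and 11 did not pass. The shares over all genes were again 25.9% and 24.9%, and the median of the list was 0.04. The list also holds PTPN11 (SHP2) and SH2B1, chosen after their values were seen, which can promote signalling as well. They stood at 0.01 and -0.07 in the authors' deposited table with the sign reversed and did not pass. RNF41, a ubiquitin ligase that controls the surface level of EPOR and related receptors, was 1.85-fold lower at -0.89 in the authors' deposited table with the sign reversed, with a derived SE of 0.05 (adjusted p = 6.82e-07). With the sign reversed, the authors' deposited table gave -0.90 for PTPRJ, a receptor phosphatase with a low mean of 1.10 log2 CPM and a derived SE of 0.22, and -0.49 for SOCS7, a further SOCS protein, both past the threshold. PTPN6, the phosphatase SHP-1 that switches off EPOR-bound JAK2, was chosen after its value was seen, and it was lower (log2 fold change -0.48 in the authors' deposited table with the sign reversed), with a derived SE of 0.07 (adjusted p = 0.000372). The STAT inhibitors PIAS3 (0.57) and PIAS1 (0.38) and the adaptor STAP1 (0.45) were higher in the authors' deposited table with the sign reversed. The genes listed as inhibitors thus moved both ways. By point value SH2B3, at -1.02, lay below all 23, but its derived 95% interval overlaps those of RNF41 and PTPRJ.

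Adaptors and kinases below the receptors included GAB2, the lowest value of the whole pathway. Of 21 measured, 9 were lower and 4 higher, and 8 did not pass, beside 25.9% of all genes lower and 24.9% higher. The median was -0.04. The lower genes include FOXO3, a transcription factor rather than an adaptor or kinase, chosen after its value was seen. It stood at -0.37 in the authors' deposited table with the sign reversed. With a minimum absolute log2 fold change of 0.2, the counts of the list were 8 lower and 2 higher, beside 2740 and 2498 of all genes. At an adjusted p below 0.01 they were 7 and 3, beside 2206 and 2093. After centring on the median of genes with 5 log2 CPM or more they were 9 and 3, beside 3532 and 2566. GAB2, a docking protein that links KIT and EPOR to PI3 kinase and SHP2, was 2.99-fold lower at -1.58 in the authors' deposited table with the sign reversed, with a derived SE of 0.06 (adjusted p = 4.16e-08). FYN, a SRC family kinase, was 1.97-fold lower at -0.98 in the authors' deposited table with the sign reversed, with a derived SE of 0.07 (adjusted p = 2.49e-06). TEC, a kinase activated by KIT and EPOR, was 1.84-fold lower at -0.88 in the authors' deposited table with the sign reversed, with a derived SE of 0.06 (adjusted p = 2.23e-06). Of the higher genes, GRB2, the adaptor that leads to RAS, stood at 0.26, CRKL at 0.22 and PIK3CB, a catalytic subunit of PI3 kinase, at 0.19 in the authors' deposited table with the sign reversed. LYN, the SRC family kinase most tied to EPOR and chosen after its value was seen, stood at 0.05 (adjusted p = 0.428) in the authors' deposited table with the sign reversed.

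Known targets of STAT5 moved both ways. Of 15 measured beside CISH, SOCS2 and PIM1, 4 were lower and 8 higher, and 3 did not pass. The called share was 80%, beside 50.9% of all genes, 25.9% as lower and 24.9% as higher. The median was 0.28. The lower genes include BCL6, which STAT5 represses, so these counts and the median pool induced and repressed targets. CCND1, a cyclin of G1, was 2.37-fold higher at 1.24 in the authors' deposited table with the sign reversed, with a derived SE of 0.07 (adjusted p = 9.17e-07). TFRC, the transferrin receptor, was higher at 1.01 and CCND3, the cyclin that sets the number of divisions of erythroid cells, at 0.72 in the authors' deposited table with the sign reversed, with a derived SE of 0.05. The survival genes MCL1 (0.50) and BCL2L1 (0.37), chosen after their values were seen, were higher as well in the authors' deposited table with the sign reversed. Besides BCL6, the lower genes included BCL2, a survival gene, at -0.59 with an SE of 0.09, and FAM132B, which encodes the hormone erythroferrone made by erythroblasts under erythropoietin, at -0.47 in the authors' deposited table with the sign reversed, with a derived SE of 0.05. FAM132B and SOCS2 were thus lower, CISH and PIM1 did not pass, and BCL2L1 and TFRC were higher, so the targets named here did not share a direction. These genes answer to other pathways too, and STAT5 activity was not measured.

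**Figure D4:**
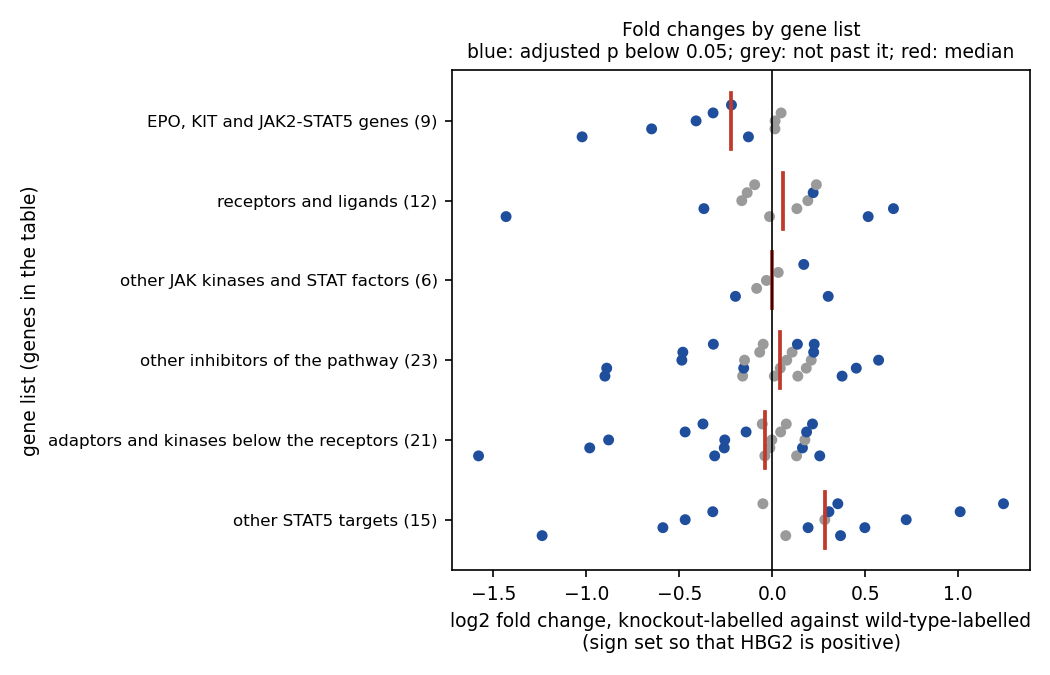
Log2 fold changes of the 9 members and of 5 further lists of pathway genes, 1 point per gene, in blue where the adjusted p was below 0.05 and grey otherwise; the red line is the median of each list and vertical scatter only separates points. The members' median lies at -0.22 and that of the other STAT5 targets at 0.28, while the other lists have medians within 0.06 of zero.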

How the data were processed

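Total RNA of 3 knockout and 2 wild-type libraries was extracted with Trizol and made into libraries with an Illumina TruSeq kit, per the labels' protocols. The build hg19/GRCh37 and the tools edgeR 2.6.12, HTSeq, Cuffdiff, TopHat2 2.0.4 and SAMtools are listed without roles in the submitters' processing notes; how genes were filtered and normalized was not given in the sources used here. The authors deposited, per the file headers, 5 values a gene: log2 fold change, mean log2 CPM, the F score of a quasi-likelihood test, its p-value and the adjusted p-value. Of 11979 rows, 3 name no gene; they hold 21.5% of the CPM and were left out of counts here, although the deposited adjustment includes them. The table has 0 columns of values per library, so no model was fitted again. The call was the deposited adjusted p below 0.05, with the deposited sign multiplied by -1 to place HBG2 higher in the libraries labelled knockout. The SE is the absolute log2 fold change over the square root of F. Intervals used a t distribution whose 10.3 degrees of freedom were solved from F and p. The calculation was run on data simulated from these same formulas. That checks the arithmetic, not whether the formulas hold for these libraries. SE and interval are approximate, since fitted fold changes may be moderated. The members and lists were chosen with earlier results of these data known. Named genes are all members and, per list, up to 3 genes with the largest change in each direction among those past the threshold; others are marked as chosen after their values were seen. A further result under this rule is not reported here. Python 3.11.15 with scipy 1.17.1 was used. The alternatives tried were another adjustment, a stricter threshold, a minimum expression, a minimum fold and centring.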

Additional observations from a re-analysis of the deposited data

How the results depend on the processing

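The count of 6 lower and 0 higher genes among the 9 members was 5 and 0 at an adjusted p below 0.01 or with a minimum absolute log2 fold change of 0.2, and 6 and 0 with p-values adjusted over gene rows, with a minimum of 1 log2 CPM, and after centring on the median of genes with 5 log2 CPM or more. The gene that dropped out was STAT5A (-0.13, adjusted p = 0.0474) in both cases; over the settings that change its p, that value ran from 0.0171 to 0.0474. Centring moved all genes by 0.03 and turned CISH and PIM1, neither past the threshold, to -0.0191 and -0.0181. Of 6 other JAK and STAT genes, 3 were called, but 1 at an adjusted p below 0.01 and 1 with the minimum fold; of the receptors, 5 were called, but 3 at an adjusted p below 0.01. The total called in each other list stayed within 1.5 times under these 5 settings. In the list of adaptors and kinases, 9 were lower and 4 higher. That split was 8 and 2 with the minimum fold, 7 and 3 at an adjusted p below 0.01, and 9 and 3 after centring. The split over all genes was 3105 lower and 2987 higher, or 3532 and 2566 after centring. It was 2206 and 2093 at an adjusted p below 0.01, and 2740 and 2498 with the minimum fold. In total, 6092 of all 11976 genes were called, but 4299 at an adjusted p below 0.01 and 5238 with the minimum fold. No paired analysis was possible because the authors' deposited table has no values per library, and for the same reason no replicate was left out. The direction rests on HBG2 alone.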
